A study of Mus musculus with 15 samples.

Results

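Whole testes of C57/BL6 mice that received HMS-I1 were set against whole testes of the Control group by RNA sequencing. The comparison rests on 6 of the 15 libraries of the study, 3 titled HMS-I1 and 3 titled Control, and on the 17896 of 36118 genes whose mean over all 15 libraries was at least 10 normalised counts. Both groups are given as wild-type C57/BL6 testes with no allele or transgene, and the labels name no vehicle for Control. The labels give neither the dose, the age nor the duration, and they do not spell out HMS-I1, which is used here as a name only. The titles call the treated libraries replicates 1, 2 and 3 of HMS-I1, whereas the treatment field numbers them HMS-I1, HMS-I2 and HMS-I3. Grouping follows the titles, so every HMS-I1 mean and its n of 3 depends on them. Nothing states that replicates are separate animals, and the p-values may therefore measure technical spread only. The study as a whole asks how modifications of histones H3 and H4 relate to the organisation of chromosomes in meiotic prophase.

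A testis makes sperm in tubules where spermatogonia divide, enter meiosis as spermatocytes and become haploid spermatids, nursed by Sertoli cells. Leydig cells between the tubules make testosterone, and vessels, macrophages and muscle-like myoid cells surround them. In meiotic prophase the chromosomes are held on protein axes joined by the synaptonemal complex. Histone methylation is written by methyltransferases and erased by demethylases of the LSD and jumonji families, and acetylation is set by acetyltransferases and deacetylases. Libraries of the whole organ mix all these cells, so fewer cells of a type and less RNA per cell cannot be told apart in any value below.

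Markers of the testis were present in each of the 6 libraries. The germ cell RNA helicase Ddx4 stood at 22874, 24406 and 11838 normalised counts in HMS-I1 replicates 1, 2 and 3 and at 22938, 18426 and 27460 in the Control replicates. The Leydig cell enzyme Cyp17a1 stood at 9088, 17194 and 12763 in HMS-I1 and at 9260, 11808 and 9963 in Control. The epididymal markers Lcn5 and Lcn8 were listed at 0 in all 15 libraries. Of the other epididymal markers, Crisp1 stood at 1.25 to 8.26 in the 6 libraries, Rnase9 at 0 to 2.81 and Adam7 at 0 to 0.79.

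The libraries did not sort by treatment. HMS-I1 replicate 1 and Control replicates 1 and 2 belong to a set of 6 libraries, called the first set, with very high histone and low mitochondrial values. HMS-I1 replicates 2 and 3 and Control replicate 3 belong to the second set of 9 libraries with the opposite pattern. The labels name no batch, and the sets were read from the values. The first set thus holds 1 HMS-I1 and 2 Control libraries and the other holds 2 and 1, so every gene that differs between the sets leans one way in the plain comparison. Across the tested genes, HMS-I1 replicate 1 correlated at 0.970 with Control replicate 2 and at 0.966 with Control replicate 1, but at 0.896 and 0.900 with HMS-I1 replicates 2 and 3. HMS-I1 replicate 2 correlated at 0.985 with Control replicate 3. HMS-I1 replicate 3 stood further off, at 0.945 with Control replicate 3 and at 0.948 with HMS-I1 replicate 2. These correlations run across genes, which are not independent replicates.

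**Figure D1:**
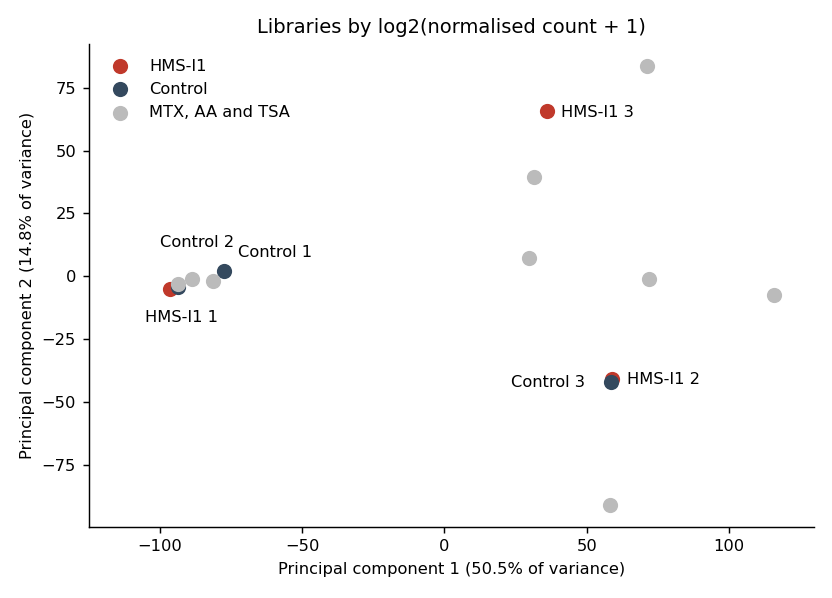
Principal components 1 (50.5% of the variance) and 2 (14.8%) of the log2 values of the 15 libraries, with HMS-I1 in red, Control in dark blue and the other treatments in grey. HMS-I1 1 lies beside Control 1 and 2 at the left, HMS-I1 2 lies on Control 3 at the lower right, and HMS-I1 3 lies apart from both at 65.7 on component 2.

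The depth of the libraries is not given, but low values hold a trace of it. In each library a single low value recurred in many genes, as it does where whole reads are divided by a library's own factor. It was 2.53, 0.629 and 0.453 in HMS-I1 replicates 1, 2 and 3 and 1.98, 2.13 and 0.651 in the Control replicates. Each column sum divided by that value, in units of 1e+06, gave 12.8, 55.9 and 61.3 in HMS-I1 and 15.5, 14.97 and 51.5 in Control. Read as relative depths, they put the first-set libraries well below the second-set ones, so low genes of HMS-I1 replicate 1 and Control replicates 1 and 2 are measured with more counting error.

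HMS-I1 against Control gave no gene past the threshold. Values were analysed as log2(normalised count + 1) in a limma model of all 5 groups with 10 residual degrees of freedom, with two-sided p-values adjusted over the 17896 genes by Benjamini and Hochberg. At an adjusted p under 0.05, 0 genes were called (0%), and the smallest adjusted p was 1. At an unadjusted p under 0.05 there were 73 genes (0.408%), 25 higher (0.14%) and 48 lower (0.268%). That share is lower than the 5% expected if no gene changed, so it is no excess. In simulated data with the library sets kept, this fit called 16.4% of genes shifted by log2 1 and 43.3% by log2 2. A fit with the library set as a term called 31.3% and 74.6% there, and on the study's data it too gave 0 calls. The simulated noise was independent between genes, so shifts shared by many genes of a library were not modelled. The absence of calls therefore does not show that no gene changed. A log2 difference above 1 was seen for 222 genes (1.24%) and one below -1 for 500 (2.79%). The log2 difference was above 0 in 8571 genes (47.9%), with a median of -0.02 over all genes and a median standard error (SE) of 0.44.

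Within the sets, genes with differences of the same sign were about as frequent as genes with differences of opposite sign. HMS-I1 replicate 1 was set against the mean of Control replicates 1 and 2, and the mean of HMS-I1 replicates 2 and 3 against Control replicate 3. Both differences were above 0 in 4336 genes (24.2%), both below 0 in 4254 (23.8%), and of opposite sign in 9275 (51.8%). Both exceeded 1 in 32 genes (0.179%), and both were below -1 in 87 (0.486%). A limma fit with a mean for each group and set, which leaves 5 residual degrees of freedom and assumes that a lone library varies like the others, called 2 genes in the first set (0.0112%) and 0 in the other (0%). At an unadjusted p under 0.05 there were 477 genes in the first set (2.67%). In the second set 108 genes had an unadjusted p under 0.05 (0.603%). The difference between the sets was called for 0 genes (0%), with 310 at an unadjusted p under 0.05 (1.73%). Each of these unadjusted shares was lower than the 5% expected if no gene changed.

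**Figure D2:**
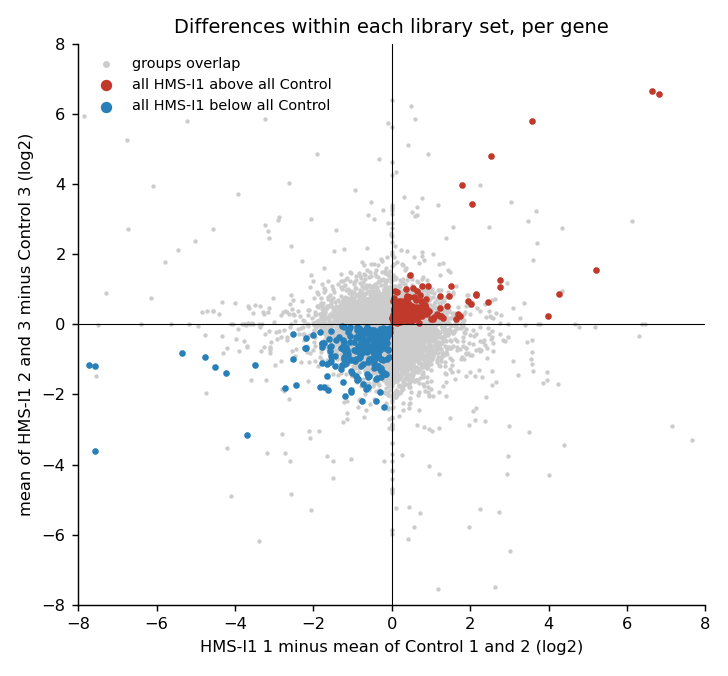
Each point is a gene, with the log2 difference of HMS-I1 1 from the mean of Control 1 and 2 on the x axis and that of the mean of HMS-I1 2 and 3 from Control 3 on the y axis. Grey genes have overlapping groups, and the 242 red and 242 blue genes have all HMS-I1 libraries above or below all Control libraries, which places them in the upper right and lower left by construction. Outside the axes lie 3 genes.

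The 2 called genes rest on libraries listed at 0. Ccl21b, a chemokine gene with near-identical copies, was at 83.2 normalised counts in HMS-I1 replicate 1 and at 0 in HMS-I1 replicates 2 and 3 and in the 3 Control libraries (adjusted p = 0.0386, limma). Gm3383 was at 0 in HMS-I1 replicate 1, 84.3 and 61.1 in HMS-I1 replicates 2 and 3, and 203, 159 and 72.6 in the Control libraries (adjusted p = 0.0198, limma). Such a 0 can be a failed estimate between near-identical sequences, so both are uncertain. Neither call was repeated in the second set, where the differences were 0 for Ccl21b and -0.02 for Gm3383.

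The treated libraries differed in how far they lay from their like controls. HMS-I1 replicate 1 was set against a mean of 2 libraries and replicates 2 and 3 against a single one. The share of replicate 1 is therefore not directly comparable with the others. A difference beyond 1 on the log2 scale from the mean of Control replicates 1 and 2 was seen for 6.49% of genes in HMS-I1 replicate 1. Control replicates 1 and 2 differed from each other by that much for 7.36% of genes, though as single libraries and not from a mean of 2. From Control replicate 3, HMS-I1 replicate 2 differed by that much for 3.63% of genes and HMS-I1 replicate 3 for 17.1%. Replicate 3 of HMS-I1 differed from replicate 2 of HMS-I1 by that much for 18.5%. HMS-I1 replicate 3 thus lay further from both second-set libraries than they lay from each other.

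Genes whose groups did not overlap numbered 242 with HMS-I1 higher (1.35%) and 242 with HMS-I1 lower (1.35%), 484 in all (2.7%). The 12 in each direction with the largest difference in the set where it was smaller were taken from those with a mean of at least 50, a protein-coding type and a proper symbol, which were 181 higher and 110 lower. Their separation is what chose them, and each had an adjusted p of 1 (limma), so their values are a description.

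On the higher side, Tspan9, a tetraspanin of the cell membrane, stood at 273, 134 and 172 normalised counts in HMS-I1 replicates 1, 2 and 3, against 82.6, 110 and 70.4 in the Control replicates. Its log2 difference was 1.09 (SE 0.39), with 1.51 for the first set and 1.10 for the second. Ptpro, a receptor tyrosine phosphatase, stood at 70.4, 59.6 and 65.2 in HMS-I1 against 33.7, 50.2 and 28.6 in Control. In these 2 genes the smaller of the within-set differences was still 1.10 and 0.76. Pfkl, the liver-type phosphofructokinase that commits sugar to glycolysis, stood at 620, 600 and 884 in HMS-I1 against 371, 371 and 456 in Control. The log2 difference of Pfkl was 0.79 (SE 0.34), close to equal in the first (0.74) and second set (0.68).

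Slc5a6, which carries biotin and pantothenate into cells, stood at 108, 114 and 121 in HMS-I1 against 92.1, 58.3 and 82.8 in Control. Slc9a9, a sodium-proton exchanger of endosomes, stood at 109, 91.5 and 125 against 77.2, 51.1 and 75.4. Gpr89, a channel that sets the pH of the Golgi, stood at 871, 792 and 970 against 577, 620 and 634. Acvr2b, a receptor for activin, a hormone made in the testis, stood at 102, 68.7 and 102 in HMS-I1 against 65.7, 46.8 and 60.3 in Control. Cebpd, a transcription factor, averaged 123.4 ± 23.0 in HMS-I1 and 70.1 ± 29.2 in Control (SD, n = 3 each). The remaining 4 were Shkbp1, Pecr (a peroxisomal enoyl-CoA reductase), Pycrl (an enzyme of proline synthesis) and Dnase1l1, with log2 differences of 0.59, 0.70, 0.63 and 0.61.

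On the lower side, Tet2, an enzyme that oxidises methylated cytosine in DNA, stood at 150, 173 and 61.7 normalised counts in HMS-I1, against 316, 288 and 271 in Control. Its log2 difference was -1.31 (SE 0.47), with -1.004 for the first set and -1.38 for the second. The Control libraries were close together and HMS-I1 replicate 3 was the lowest. Atp13a4, a transport ATPase, stood at 68.6, 62.2 and 42.7 against 150, 167 and 113 (log2 difference -1.30, SE 0.46). Rbms3, an RNA-binding protein, stood at 78.4, 112 and 60.7 against 133, 198 and 207, and Hpse2, a relative of heparanase, at 88.3, 103 and 73.1 against 234, 163 and 145. Umodl1 was the tightest of the lower genes, at 86.2, 90.3 and 78.5 in HMS-I1 against 149, 142 and 144 in Control.

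Genes used by leukocytes were among the lower ones. Ptprc, the CD45 phosphatase of all leukocytes, stood at 114, 114 and 97.6 in HMS-I1 against 293, 225 and 189 in Control (log2 difference -1.09, SE 0.53). Itga4, an integrin of leukocytes and other cells, stood at 60.9, 90.4 and 49.0 against 116, 118 and 139. Ms4a4b, a membrane protein of T cells, stood at 33.8, 44.9 and 33.4 against 50.5, 58.3 and 143, so its difference leaned on Control replicate 3. The list of macrophage and leukocyte genes had 14 of 21 members above 0 and a median log2 difference of 0.11 in the plain comparison. With the library set as a term its median was -0.166. Against like controls, 17 of 21 members were lower in HMS-I1 replicate 1 and 15 of 21 in replicate 2. In HMS-I1 replicate 3, 17 of 21 were higher. The summed level of the list was 7167 to 14632 normalised counts in HMS-I1 and 8531 to 12070 in Control. The part of leukocyte content in the Ptprc value was not tested. Among the 12, Zfp808, Pls1, Nrcam and BB287469 had log2 differences of -1.27, -0.99, -0.92 and -1.80, and BB287469 was at 13.2 in HMS-I1 replicate 2 against 138 and 133 in HMS-I1 replicates 1 and 3.

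**Figure D3:**
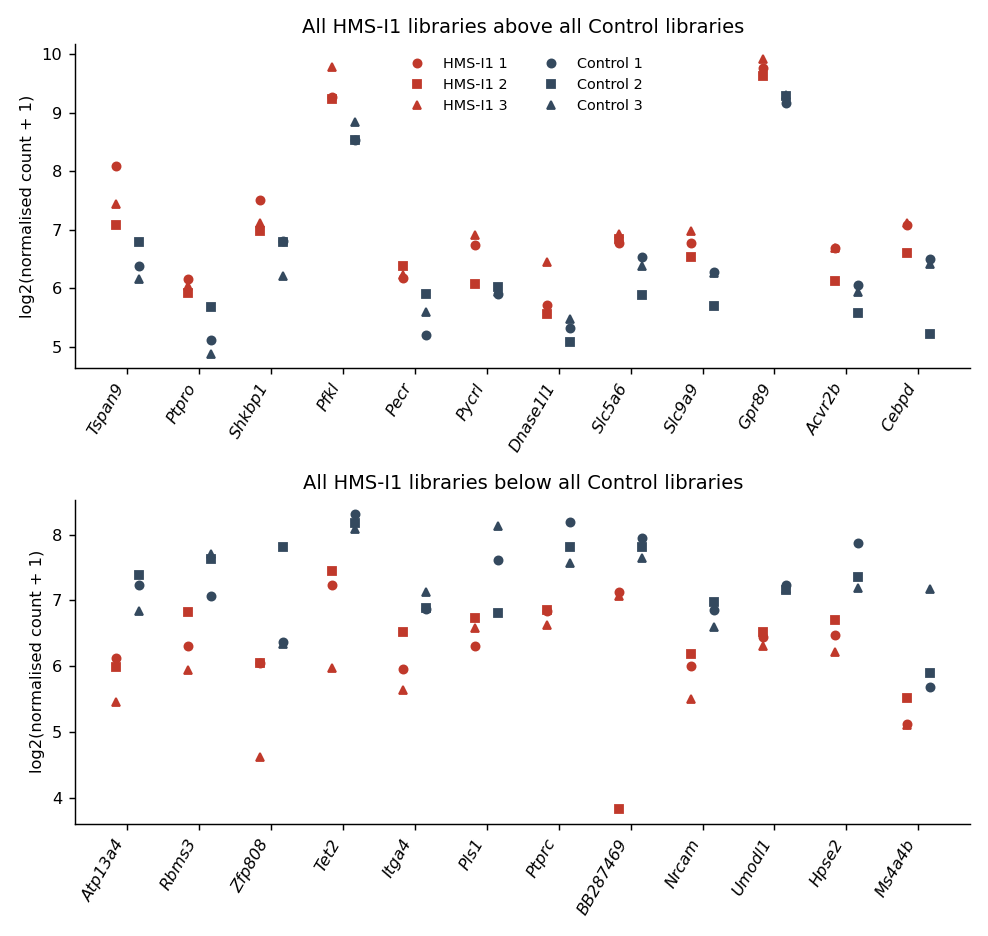
The 12 higher (top) and 12 lower (bottom) genes, with log2(normalised count + 1) on the y axis, HMS-I1 libraries in red at the left of each gene and Control libraries in dark blue at the right, and circles, squares and triangles for replicates 1, 2 and 3. The groups do not overlap because the genes were chosen for it, and the gap is narrow for most, as for Pycrl and Dnase1l1.

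Further separated genes outside the naming rule were picked after their values were seen. Gm28897 was listed at 0 in the 3 Control libraries and at 111, 84.5 and 106 in HMS-I1. Gm21771, an unprocessed pseudogene, was listed at 0 in Control and at 98.6, 224 and 44.7 in HMS-I1. Both are predicted genes for which shared sequence could move reads, so no fold is given. Crybg2 stood at 12.2, 15.4 and 28.2 in HMS-I1 against 125, 59.5 and 76.7 in Control. The guanylate-binding protein genes Gbp8 and Gbp10, of the interferon response, stood at 4.89, 6.48 and 2.61 and at 0, 0.761 and 0 in HMS-I1, against 17.2, 22.8 and 16.9 and 23.7, 5.91 and 10.9 in Control.

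Genes that write, erase and read histone marks were described through lists, none of which was tested as a set. Of the 24 LSD and jumonji demethylase genes, 15 lay above 0 and 9 below, with a median log2 difference of 0.06 beside -0.02 over all genes. None passed the threshold, and none had groups that did not overlap (background 1.35% in each direction). Kdm1a, the demethylase LSD1 that removes methyl groups from lysine 4 of histone H3, stood at 2736, 3612 and 4098 normalised counts in HMS-I1 against 3352, 2216 and 3507 in Control. Its groups overlapped, and the within-set differences were 0.01 and 0.13. Kdm1b, the second LSD enzyme, stood at 333, 523 and 261 in HMS-I1 against 342, 349 and 540 in Control. Kdm5b, the most abundant of the family here, which erases the same mark from its trimethylated state, stood at 8648, 9316 and 11017 against 10430, 7957 and 9996.

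LSD1 works in a complex with CoREST proteins and the deacetylases Hdac1 and Hdac2. In a list of 14 partner genes, 9 lay above 0 with a median of 0.17, and 2 had all HMS-I1 libraries above all Control libraries, which is 14.3% beside 1.35% of all genes. The median was 0.012 with the library set as a term and -0.011 without HMS-I1 replicate 2. Rcor2, a CoREST protein, stood at 186, 144 and 144 normalised counts in HMS-I1 against 62.6, 56.1 and 128 in Control. Its log2 difference was 1.02 (SE 0.49) overall and 1.63 in the first set, but 0.16 in the second, where HMS-I1 and Control lay close. Gse1, another subunit of such complexes, stood at 291, 203 and 283 against 202, 178 and 183. Rcor1, the main CoREST protein, overlapped, at 781, 1100 and 925 in HMS-I1 against 930, 977 and 1094 in Control. Hdac1 stood at 4003, 8012 and 8758 against 4133, 3739 and 8135 and followed the library sets in both groups. Hdac2 stood at 1640, 3710 and 1616 in HMS-I1 against 1517, 1486 and 3926 in Control, so HMS-I1 replicate 3 held a first-set level of Hdac2.

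Other histone enzymes were likewise without a call. Of 41 methyltransferase genes, 25 lay above 0 (median 0.04), with medians of -0.06 for the first set and -0.02 for the second. Kmt2b, which methylates lysine 4 of histone H3, stood at 1053, 1591 and 808 in HMS-I1 against 816, 620 and 1220 in Control. Prdm9, which marks the sites of meiotic recombination with methyl groups on histone H3, stood at 369, 321 and 129 against 402, 423 and 306, and HMS-I1 replicate 3 was the lowest of the 6. Of 15 acetyltransferase genes, 8 lay above 0 (median 0.000367), and 1 had groups that did not overlap (6.67%, beside 1.35% of all genes). A single separated gene does not describe its list. That gene was Ep300, the p300 acetyltransferase, at 1191, 1195 and 718 in HMS-I1 against 1589, 1698 and 1195 in Control. The gap between HMS-I1 replicate 2 and Control replicate 3 was under 1 normalised count. Of 18 deacetylase and sirtuin genes, 9 lay above 0 (median 0.02). Hdac9 alone did not overlap (1 of 18, 5.56% beside 1.35% of all genes), at 161, 129 and 88.8 against 167, 178 and 174.

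Germ cell genes were ordered along the path to sperm. Undifferentiated spermatogonia, the stem cell pool, had 16 of 20 members above 0 and a median of 0.29 in the plain comparison, but -0.011 with the library set as a term. The medians were -0.19 in HMS-I1 replicate 1 against Control replicates 1 and 2, and 0.03 and 0.12 in HMS-I1 replicates 2 and 3 against Control replicate 3. The stem cell receptor gene Gfra1 stood at 109, 129 and 132 normalised counts in HMS-I1 against 138, 119 and 89.9 in Control. The spermatogonial transcription factor Zbtb16 stood at 60.3, 212 and 202 against 151, 102 and 198, lowest in HMS-I1 replicate 1. Neither separated the groups. Differentiating spermatogonia and meiotic entry genes had 12 of 20 above 0 (median 0.09), with within-set medians of -0.05 in each set. Kit, the receptor of differentiating spermatogonia, stood at 549, 1052 and 1302 against 682, 631 and 999, and Stra8, the gatekeeper of meiosis, at 329, 833 and 636 against 304, 356 and 868.

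Cell division genes had 15 of 22 members above 0, with a median of 0.19, and 3 with all HMS-I1 libraries above all Control libraries, which is 13.6% beside 1.35% of all genes. They were picked here because they separated, and their part in a shared change was not tested. Ccnb1, the cyclin that partners Cdk1 at entry into division, stood at 3359, 2900 and 4441 normalised counts in HMS-I1 against 2627, 2837 and 2520 in Control. Cdk1 itself stood at 2066, 2055 and 2073 against 1552, 1334 and 1736, with a log2 difference of 0.43 (SE 0.20). Aurka, a kinase of the spindle poles, stood at 5579, 5156 and 7429 against 4524, 4874 and 4178 (log2 difference 0.40, SE 0.25). HMS-I1 replicate 3 was the highest of the 6 libraries for Ccnb1 and Aurka, while Cdk1 was level across the 3 HMS-I1 libraries. For 5 of the 22 list members (22.7%), HMS-I1 replicate 3 was instead the lowest of all 15 libraries. The list median was 0.033 with the library set as a term, with medians of 0.02 for the first set and 0.10 for the second.

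The stretches of 120 bases before the start of these 3 genes are shown because they separated together, with letters from RefSeq on build GRCm38.p6 and the minus strand in each case. Capitals mark CCAAT or its reverse ATTGG, the box bound by the factor NF-Y, and TTTGAA or its reverse TTCAAA, the core of an element of cell cycle promoters. Ccnb1 lies at chr13:100786487-100786606, Cdk1 at chr10:69352913-69353032 and Aurka at chr2:172370571-172370690.
Ccnb1: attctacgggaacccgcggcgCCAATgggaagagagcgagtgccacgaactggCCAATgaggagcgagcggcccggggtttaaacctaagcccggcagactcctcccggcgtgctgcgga
Cdk1: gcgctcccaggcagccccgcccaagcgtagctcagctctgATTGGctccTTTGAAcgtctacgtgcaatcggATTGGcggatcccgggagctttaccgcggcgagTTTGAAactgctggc
Aurka: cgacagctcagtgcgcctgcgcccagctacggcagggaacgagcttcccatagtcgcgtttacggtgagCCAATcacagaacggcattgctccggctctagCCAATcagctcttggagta
Each window held 2 CCAAT boxes on either strand, and the Cdk1 window also held 2 copies of TTTGAA, none overlapping a box. CCAAT or its reverse is present in 21.3% of all 32851 RefSeq promoter windows of this length, and TTTGAA or its reverse in 7.12%. Of the 22 genes of the list, 18 matched a promoter. In the same window of 120 bases 14 of them held a CCAAT box and 6 a TTTGAA in at least 1 of their promoters. These counts are per gene and the shares above per single window, so they are not directly comparable. A match of letters describes the window and does not show that a factor bound there.

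Genes of the meiotic chromosome axis and synapsis lay below 0 in 20 of 23 members, with a median log2 difference of -0.16, and 0 of the 23 passed the threshold or separated the groups. The within-set values were unlike. HMS-I1 replicate 1 had 15 of 23 members above its like controls, with a median of 0.06. Against Control replicate 3, HMS-I1 replicate 2 had 18 of 23 below with a median of -0.14, and HMS-I1 replicate 3 had 17 of 23 below with a median of -0.68. Without Control replicate 3 the list median was 0.002. HMS-I1 replicate 3 held the lowest value of all 15 libraries for 8 of the 23 genes (34.8%), beside 7.52% of all genes tested. This was not particular to meiotic genes. The share was 25% of demethylase, 22.7% of cell division and 17.1% of methyltransferase genes, but 0% of acetyltransferase and of glycolysis genes.

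Members with the widest spread show that pattern. Sycp1, the central filament of the synaptonemal complex, stood at 13775, 30110 and 7136 normalised counts in HMS-I1 against 11385, 14994 and 38594 in Control. Sycp2 and Sycp3 form the axis core. Sycp2 stood at 25242, 15726 and 3638 against 19387, 24853 and 16733, and Sycp3 at 11191, 16783 and 5133 against 8214, 11246 and 17915. Replicate 3 of HMS-I1 was the lowest of the 6 libraries in each of these genes. Smc1b, a cohesin subunit of meiosis, stood at 15181, 16851 and 3398 against 13837, 15275 and 20529. Hormad1, an axis protein that marks unsynapsed chromosomes, stood at 7110, 11335 and 4203 against 5136, 8142 and 12075. Not all members were low in HMS-I1 replicate 3. Stag3, another meiotic cohesin subunit, stood at 14264, 9756 and 10525 against 14323, 12350 and 8362, and Rec8 at 1403, 1400 and 2062 against 1588, 1164 and 1857.

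**Figure D4:**
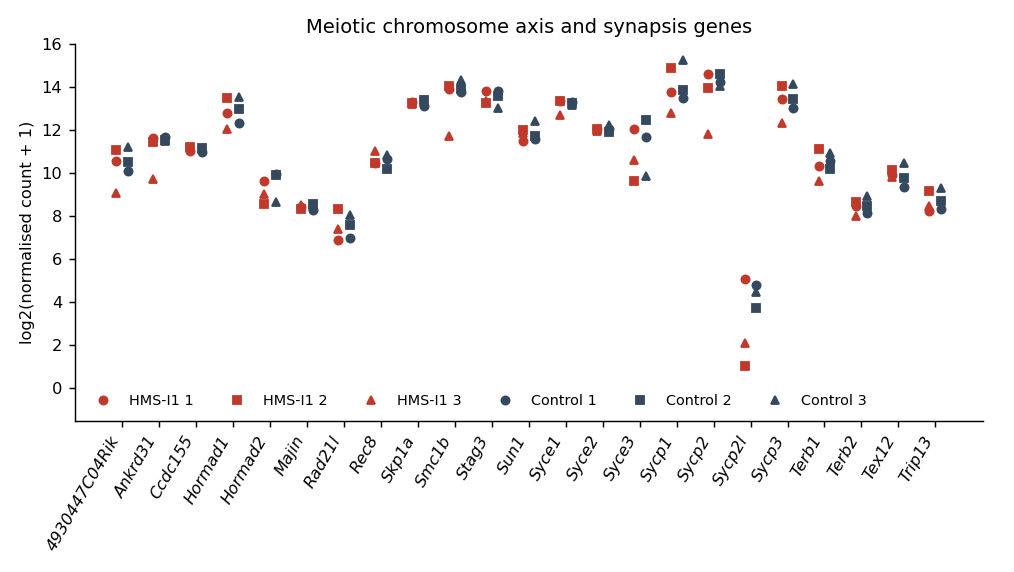
The 23 tested genes of the meiotic chromosome axis and synapsis, with log2(normalised count + 1) on the y axis, HMS-I1 libraries in red at the left and Control libraries in dark blue at the right of each gene. The red triangle, HMS-I1 3, lies well under the other 5 libraries for Smc1b, Sycp2 and Ankrd31, while HMS-I1 1 and 2 lie among the Control libraries.

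Meiotic recombination genes had 19 of 37 members above 0 and a median of 0.01. By library the medians were 0.07 for HMS-I1 replicate 1, -0.03 for replicate 2 and -0.36 for replicate 3 against like controls, and replicate 3 was the lowest of 15 libraries for 9 of the 37 (24.3%). Dmc1, the strand-exchange recombinase of meiosis, stood at 737, 982 and 729 normalised counts in HMS-I1 against 574, 650 and 1041 in Control. Spo11, which cuts DNA to begin recombination, stood at 3277, 2673 and 2501 against 2510, 3139 and 2617, and the groups overlapped. Hsf2bp, which brings recombinases to breaks, separated narrowly, at 1920, 1892 and 1936 in HMS-I1 against 1714, 1735 and 1709 in Control. Its log2 difference was 0.16 (SE 0.17), nearly equal in the first (0.15) and second set (0.16). The break-forming factor Top6bl, listed as Gm960, stood at 144, 113 and 105 against 90.4, 95.3 and 98.6, and the helicase factor Hrob, listed as BC030867, at 345, 370 and 519 against 336, 326 and 338. These were the 3 separated genes of the list, which is 8.11% beside 1.35% of all genes.

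Later germ cell genes gave no call, with list medians between -0.18 and 0.10. Pachytene and late spermatocyte genes had 14 of 20 above 0 (median 0.10). Piwil1, the piRNA-binding protein of spermatocytes, stood at 7662, 11308 and 12205 normalised counts in HMS-I1 against 8896, 7145 and 14254 in Control, and the spermatocyte chaperone Hspa2 at 27693, 37677 and 34708 against 35251, 22807 and 38674. Round spermatid genes had 17 of 21 below 0 (median -0.18), with medians of 0.04 for the first set and -0.36 for the second. In the second set 18 of 21 lay below Control replicate 3 in HMS-I1 replicate 2 and 18 of 21 in replicate 3 (medians -0.19 and -0.44). Both medians rest on that 1 Control library. The list median was -0.086 with the library set as a term, and -0.254 to -0.082 over the left-out libraries. The acrosome gene Acrv1 stood at 5750, 6338 and 5594 against 4653, 7044 and 8276. Elongating spermatid genes had 14 of 21 below 0 (median -0.08). The protamine gene Prm1 stood at 147990, 65120 and 63563 against 128626, 180451 and 70255, and the transition protein gene Tnp1 at 341615, 81945 and 84690 against 243872, 249695 and 73727, both following the library sets. Ldhal6b, a lactate dehydrogenase of spermatids, alone did not overlap (1 of 21, 4.76% beside 1.35% of all genes). It stood at 22682, 22621 and 25831 in HMS-I1 against 19604, 22393 and 19722 in Control. Genes of the piRNA pathway had 13 of 22 below 0 (median -0.03). Piwil4 alone did not overlap (1 of 22, 4.55% beside 1.35% of all genes), at 15.03, 14.5 and 14.4 against 35.1, 30.7 and 15.2.

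Stress and energy genes gave no call. Heat shock and unfolded protein response genes had 14 of 20 members above 0 (median 0.19), with within-set medians of 0.12 and 0.08, and a median of 0.011 with the library set as a term. Dnajb1, a co-chaperone of Hsp70, alone did not overlap (1 of 20, 5% beside 1.35% of all genes). It stood at 8627, 8478 and 12576 normalised counts in HMS-I1 against 8190, 7698 and 7440 in Control. Glycolysis genes had 17 of 23 above 0 (median 0.07), and 2 of the 23 separated (8.70% beside 1.35% of all genes), Pfkl as given above and the aldolase gene Aldoc, at 185, 186 and 266 against 127, 174 and 174. The related phosphofructokinase genes Pfkm and Pfkp overlapped, with log2 differences of 0.05 (SE 0.26) and 0.09 (SE 0.20). Genes of p53 and apoptosis had 16 of 22 above 0 (median 0.09), but their median was -0.047 with the library set as a term. Immediate early genes had 8 of 16 above 0 (median -0.01), with Dusp1, a phosphatase of stress kinases, at 142, 175 and 176 against 182, 189 and 206.

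Somatic cells of the testis were described the same way. Leydig cell and steroid synthesis genes had 12 of 17 above 0 (median 0.15), with medians of -0.18 for the first set and 0.34 for the second. Hsd3b1, an enzyme of testosterone synthesis, stood at 4079, 7226 and 8533 normalised counts in HMS-I1 against 2864, 3992 and 4935 in Control, and Cyp11a1, which cuts cholesterol in the first step, at 4611, 5204 and 7987 against 4687, 5794 and 3107. Star, which brings cholesterol into mitochondria, stood at 5467, 3752 and 1120 against 3774, 5679 and 1624. The members thus disagreed in direction between libraries. Sertoli cell genes had 16 of 26 above 0 (median 0.11, and -0.05 and -0.04 within the sets). The Sertoli transcription factors Sox9 and Wt1 followed the library sets, with Sox9 at 200, 863 and 731 against 231, 207 and 965 and Wt1 at 848, 3103 and 1938 against 797, 796 and 3315. Peritubular myoid genes had 9 of 12 above 0 (median 0.30), but the medians within the sets were -0.23 and -0.09, with the myoid actin gene Acta2 at 1185, 3865 and 3676 against 1551, 1394 and 3798.

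Blood vessel, connective tissue and immune genes lay on opposite sides of like controls in the 3 treated libraries. Extracellular matrix genes had 19 of 20 members below Control replicates 1 and 2 in HMS-I1 replicate 1 (median -0.79), and 13 and 18 of 20 above Control replicate 3 in HMS-I1 replicates 2 and 3 (medians 0.23 and 0.64). Col1a1, the main collagen chain of connective tissue, stood at 664, 3954 and 5308 normalised counts in HMS-I1 against 4567, 1319 and 3208 in Control. HMS-I1 replicate 1 was the lowest of 15 libraries for 8 of the 20 (40.0%), beside 7.74% of all genes. Endothelium genes were below like controls in 9 of 12 members in HMS-I1 replicate 1 and in 9 of 12 in replicate 2, and above in 10 of 12 in replicate 3. Macrophage and leukocyte genes were below in 17 of 21 in replicate 1 and 15 of 21 in replicate 2, and above in 17 of 21 in replicate 3. Adgre1, the F4/80 receptor of macrophages, stood at 256, 191 and 449 against 171, 254 and 185. Interferon response genes had 15 of 22 below 0 (median -0.16). The RNA sensor Ddx58 alone did not overlap (1 of 22, 4.55% beside 1.35% of all genes), at 160, 209 and 191 against 209.4, 211 and 272.

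Traces of other tissue varied between libraries within each group. Adipocyte genes had 10 of 12 members below 0 (median -0.86), and the median was 0.089 without Control replicate 1. The medians were -1.83 in HMS-I1 replicate 1 and 0.40 and 0.66 in replicates 2 and 3 against like controls. Their summed level was 1381, 1527 and 1691 normalised counts in HMS-I1 against 9212, 1905 and 1249 in Control. Fabp4, the fatty acid carrier of fat cells, stood at 12.03, 84.3 and 169 against 1895, 173 and 26.9, so Control replicate 1 held most of the signal. Adipoq, the fat cell hormone adiponectin, was less extreme, at 646, 150 and 199 against 1013, 626 and 184. Erythroid genes were above 0 in 6 of 6 (median 0.30), with a summed level of 1700, 2700 and 5570 in HMS-I1 against 1492, 2359 and 3515 in Control. Against like controls their medians were -0.11, -0.40 and 0.77 in HMS-I1 replicates 1, 2 and 3. The list median was 0.107 with the library set as a term and -0.059 without HMS-I1 replicate 3. Of 20 epididymal genes, 4 passed the filter on the mean, with a median of -0.02, and 4 of the 20 were at 0 in all 6 libraries. The summed level of the 20 was 15273, 7384 and 8469 in HMS-I1 against 10916, 14521 and 6297 in Control. It followed the library sets, with HMS-I1 replicate 1 and Control replicates 1 and 2 the highest. The epididymal markers given above stood at 8.26 or less, so the sum came almost wholly from other genes. Whether it reflects epididymal tissue was not tested.

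Genes that mark the library sets had wide list medians in the plain comparison. Replication-dependent histone genes, which supply histones for S phase, lay below 0 in 54 of 59 members (median -1.77), against medians of -0.22 for the first set and 0.24 for the second. Their mean log2 level was 8.50, 3.33 and 3.94 in HMS-I1 and 8.82, 8.67 and 3.39 in Control. The group means were 5.26 ± 2.83 in HMS-I1 and 6.96 ± 3.09 in Control (SD, n = 3 each), and an exact two-sided permutation test gave p = 0.5, where the smallest p possible with 3 against 3 is 0.1. The 13 mitochondrially encoded protein genes lay above 0 in 13 of 13 (median 0.71). They made up 1.08%, 9.62% and 3.54% of the column sum in HMS-I1 against 1.11%, 1.40% and 8.06% in Control (exact two-sided permutation p = 0.7). Within the second set, HMS-I1 replicate 2 was above Control replicate 3 in 12 of 13 (median 0.33) and HMS-I1 replicate 3 below it in 13 of 13 (median -2.03). Cytosolic ribosomal protein genes had a median of -0.06 over 83 members. They were above like controls in 71 of 83 in HMS-I1 replicate 1, in 5 of 83 in replicate 2 and in 72 of 83 in replicate 3.

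**Figure D5:**
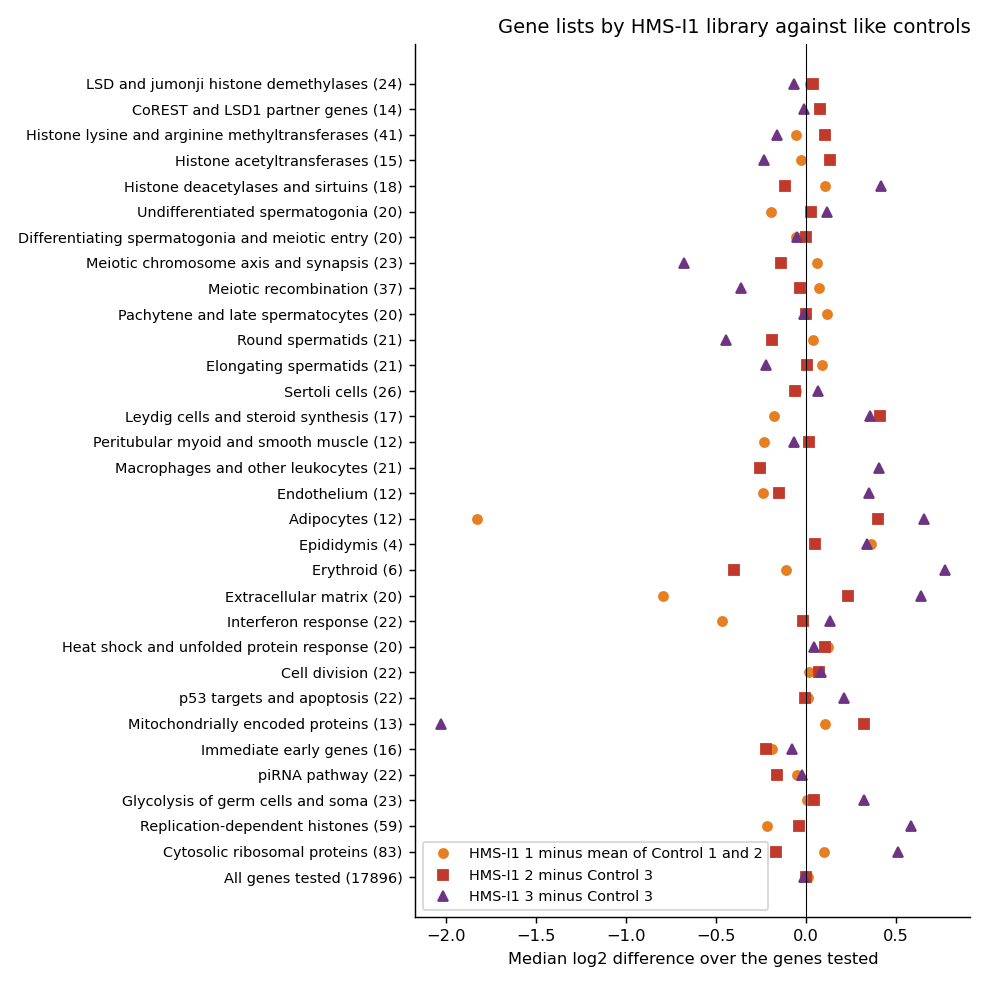
Median log2 difference of each gene list (number of genes tested in brackets) for HMS-I1 1 from the mean of Control 1 and 2 (circles), HMS-I1 2 from Control 3 (squares) and HMS-I1 3 from Control 3 (triangles). HMS-I1 2 stays within 0.41 of 0 for every list shown, while HMS-I1 1 reaches -1.83 for Adipocytes and HMS-I1 3 reaches -2.03 for Mitochondrially encoded proteins.

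Over all lists, 693 distinct genes were tested, 12 of them with all HMS-I1 libraries above all Control libraries (1.73%) and 6 with all below (0.866%), beside 1.35% in each direction over all genes.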

How the data were processed

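Whole testes were profiled in 15 libraries, and 6 of them enter this comparison directly. What the authors deposited is a signal matrix, counts scaled between libraries, for 36118 Ensembl identifiers. Named per the submitters' processing notes are FastQC 0.11.9, Salmon 0.12.0, DESeq2 1.34.0 and build GRCm39. Strand setting and filters are not given in the sources used here. Whole reads could not be recovered, so no counting interval is given. Symbols came from GENCODE M21 (GRCm38) by identifier, with 35877 matched and 241 not, and no gene coordinates on the files' build are given. Tests used log2(normalised count + 1), a scale on which changes of low genes appear smaller. After removing genes averaging under 10 across the study, limma 3.58.1 was fitted in R 4.3.3 (trend on the mean). The members, lists, library sets and naming rule were chosen with earlier results of these data known, as were the tests.

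The naming rule took the 12 genes in each direction described above, up to 3 members of each of 31 lists whose groups did not overlap, genes past the threshold, and a panel of 28 genes fixed by name. Other genes, such as Ddx4, Kdm5b, Sycp2, Smc1b, Stag3, Rec8, Hsd3b1, Cyp11a1, Col1a1, Fabp4, Pfkm and Pfkp, were chosen after their values were seen. List symbols were matched with older names, and 1 symbol was not found. The test was tried on simulated data before use. Whether replicate numbers pair the samples could not be told from the values, and the main fit used no replicate block. Alternatives tried were other pseudocounts, scalings, filters, terms and left-out libraries.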

Additional observations from a re-analysis of the deposited data

How the results depend on the processing

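HMS-I1 against Control gave 0 calls under each alternative tried except 1. Without Control replicate 1 it gave 1 call, Rdh16f1, which was at 22.6, 21.4 and 34.0 normalised counts in HMS-I1 and at 15.7, 0 and 0 in Control, so leaving out each library gave 0 to 1. With the replicate block it gave 0 (415 at an unadjusted p under 0.05), and with the block and the library set together 0. Same-numbered libraries correlated at 0.47, -0.58 and 0.22 in their deviations from the group means. These values follow the library sets, with 0.62 for HMS-I1 replicate 1 and Control replicate 2. HMS-I1 replicate 2 and Control replicate 3 had 0.74. The correlations therefore cannot decide whether the numbers pair the samples. With the library set as a term it gave 0 (219 unadjusted). The first-set count of 2 became 0 with a pseudocount of 8 and 1 with a mean of at least 50, and ranged from 1 to 2 when a Control library was left out. Without a filter the fits within sets called 375 genes in the first set, 401 in the second and 616 for their difference, and the cause was not tested. Without HMS-I1 replicate 2 or 3 the second set gave 0 to 1 calls, and the difference between sets gave 0 to 2 over the left-out libraries.

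List medians moved by more than the spread between replicates in 9 instances and stayed within it in 487. That spread includes the difference between library sets, so the rule can miss lists that follow the sets. The histone median went from -1.77 to 0.005 with the library set as a term. It was not counted as moved, because the spread was 2.96. With the library set the Interferon response median was -0.40, and with set and block the Glycolysis median was 0.19. Over the left-out libraries the ranges were -0.039 to 0.45 for Sertoli cells, 0.067 to 0.48 for Leydig cells, -0.15 to 0.066 for acetyltransferases, 0.026 to 0.22 for pachytene genes and -0.095 to 0.0040 for the piRNA pathway. Other list medians also varied, from -2.035 to 0.089 for adipocytes, -0.329 to 2.006 for mitochondrially encoded genes, -3.68 to -0.762 for histones, -0.304 to 0.002 for the meiotic axis, 0.044 to 0.578 for undifferentiated spermatogonia, 0.042 to 0.307 for cell division and -0.011 to 0.415 for CoREST partners. Of the 31 list medians, 16 changed sign with the library set as a term and 22 without some library, 26 under either. The difference in the mitochondrial share, 1.22 percentage points, ranged over the left-out libraries from -1.22 to 3.49 and turned negative without HMS-I1 replicate 2 (-1.22). Depth is unknown, and the first-set libraries limit the precision of low genes.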
